A study of Mus musculus with 4 samples.

Results

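The heat-shock proteins and DnaJ chaperones of Lin-LEPR+ bone marrow cells were compared between mature and elderly mice. Members were chosen by name from the gene annotation, as every symbol that starts with Hsp, every symbol that starts with Dnaja, Dnajb or Dnajc and a number, and 8 added genes (Hsf1, Hsf2, Calr, Canx, Pdia3, Pdia4, Pdia6 and Ddit3). This gave 90 of 33924 gene symbols, and no expression value entered the choice. Of the 90, 47 were grouped as cytosolic chaperones, 19 as chaperones of the endoplasmic reticulum (ER) and 10 as mitochondrial chaperones. The others were 3 transcription factors, 7 pseudogenes, 3 genes that share the name but encode no chaperone (Hspg2, Hspb11 and Hspbap1) and Dnajc22, which was not placed.

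All mice were male wild-type (WT) C57Bl/6 animals, 3 months old in the mature group and 24 months old in the elderly group, and no other allele or treatment was used. Each age had 2 RNA libraries. Each library came from a pool of 3 or 4 mice, so that the spread between libraries is a spread between pools. PolyA selection is described in the study's methods, with named exceptions that were handled as total RNA. Among the exceptions is a sample named with an age in weeks that is close to 3 months. Whether any mature library was among these exceptions is not stated there. A difference in RNA preparation between the ages was not tested. The study's methods describe cells freed from marrow by warm enzymatic digestion and sorted as negative for Ter119, CD31 and CD45 and positive for LEPR, the leptin receptor that marks skeletal stem and progenitor cells of the marrow stroma, whereas the sample labels name whole marrow. The libraries held 11930137 and 11730849 counts in mature mice and 10472117 and 15650518 in elderly mice.

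Chaperones bind unfolded proteins and help them fold. HSP70 proteins do this in cycles of ATP use that DnaJ proteins, also called HSP40s, start and steer, HSP90 proteins act on clients that are nearly folded, small heat-shock proteins hold unfolded chains, and the HSP60/HSP10 chamber folds proteins of the mitochondrial matrix. In the cytosol the transcription factor HSF1 raises the inducible members within minutes of heat or other protein damage, and in the ER the unfolded protein response raises BiP, its partners and the protein disulfide isomerases. Marrow stromal cells secrete collagen and other matrix proteins, a task that draws on the ER set.

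Both responses act through short elements near the start sites of their target genes, and some stretches that hold a match are shown. The promoter window ran from 250 bases before to 50 bases after each start site and came from RefSeq (GRCm38.p6), which had an entry for 68 of the 90 members. The heat-shock element was searched as GAA, TTC and GAA, or as TTC, GAA and TTC, with 2 free bases between the units, and the ER stress element as CCAAT and CCACG with 9 free bases between them, each on both strands. The 2 forms of the heat-shock element can overlap. The ER stress element was found in 6 of 17 ER members (35.3%), against 0.137% of all 27025 promoters. The heat-shock element was found in 2 of 7 mitochondrial members (28.6%) and 2 of 39 cytosolic members (5.13%), against 0.662% of all promoters. The 2 mitochondrial members, Hspd1 and Hspe1, share the same stretch, so that their share counts a single place for both genes. Capitals mark the element, which in Calr lies in the reverse orientation:
Hspa5, chr2:34772010-34772058 (+): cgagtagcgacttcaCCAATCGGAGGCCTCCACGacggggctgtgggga
Dnajc3, chr14:118937812-118937860 (+): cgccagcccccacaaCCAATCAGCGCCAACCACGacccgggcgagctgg
Pdia6, chr12:17266476-17266524 (+): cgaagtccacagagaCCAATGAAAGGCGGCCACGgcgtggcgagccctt
Canx, chr11:50325785-50325833 (-): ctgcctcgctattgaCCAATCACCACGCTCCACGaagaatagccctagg
Calr, chr8:84847060-84847108 (-): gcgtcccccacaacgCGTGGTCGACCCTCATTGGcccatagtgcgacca
Hspe1, chr1:55088044-55088091 (+): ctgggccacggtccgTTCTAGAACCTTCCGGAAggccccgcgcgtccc

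The stretch printed for Hspe1 holds 2 overlapping matches and lies before the starts of 2 genes. Hspe1, which encodes HSP10, and Hspd1, which encodes HSP60, are read in opposite directions from this place, and the matches lay 89 and 84 bases before the start of Hspe1 and 144 and 139 bases before that of Hspd1. In the annotation of the counts (NCBIM37), Hspd1 spans chr1:55134679-55145087 on the minus strand and Hspe1 spans chr1:55144976-55148151 on the plus strand. Hsp90b1, the ER HSP90, held 2 ER stress elements, 212 and 107 bases before its start. The other heat-shock elements were in Dnajb6, upstream of the start, and in Hsph1, after the start. No match was found for the inducible genes Hspa1a, Hspa1b, Hsp90aa1 and Dnajb1, some of which may have had no entry. Forms of the element that differ in a base were not searched, so a missing match does not show that these genes lack it. A match describes letters in this window and is not a measured binding site.

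What the deposited counts can show differed between members. Reads were counted only on bases that belong to a single annotated transcript, so counts can be compared between libraries for a gene but not between genes. The bases left to count were a median of 75.7% of the longest transcript, and fewer than 10% were left for 7 members, among them Hsf1 and Hsf2. Protein-coding transcripts held 76.1% of the members' counts and retained-intron transcripts held 8.34%. For 20 members most counts lay outside protein-coding transcripts, among them Hspa8, Hspa5, Dnaja1 and Hsph1.

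Of the 90 members, 85 passed the filter of more than 2 counts in all and were tested. Dnajc5b, Dnajc30, Hspe1-ps4 and Hspe1-ps6 had 0 counts in every library, and Dnajc6 had 2. No member was called in either direction at an adjusted p under 0.05 by edgeR's quasi-likelihood test (Benjamini-Hochberg adjustment, 21340 genes), which called 2.73% of all genes (2.28% higher and 0.45% lower in elderly mice). The lowest adjusted p of a member in edgeR's quasi-likelihood test was 0.136, for Hspb7. DESeq2, which called 3.28% of all genes, and edgeR's exact test, which called 1.09%, also called 0 members after adjustment. At an unadjusted p under 0.05 the quasi-likelihood test gave 8 members, all higher in elderly mice (9.41% of those tested, against 11.2% of all genes, 7.61% higher and 3.64% lower). By the same threshold DESeq2 gave 6 members (8.79% of all genes) and the exact test 2 (7.49% of all genes). The 8 members of the quasi-likelihood test were Hspb7, Hspe1, Hspa9, Hspd1, Dnajc28, Dnajc9, Dnajc15 and Hspa12a. The 6 of DESeq2 included Hspa5, which was lower in elderly mice.

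The mitochondrial members had mostly higher values in elderly mice and the ER members mostly lower ones. The median log2 fold change (elderly against mature) was 0.59 over the 9 mitochondrial members tested, 0.14 over the 45 cytosolic members and -0.16 over the 19 ER members, and 0.02 over all genes. Without elderly replicate 2 the cytosolic median was -0.060, so that its direction rested on 1 library. The value was above 0 in 7 mitochondrial, 29 cytosolic and 4 ER members (51.2% of all genes). Each elderly library exceeded each mature library in 5 mitochondrial, 12 cytosolic and 1 ER member (22.9% of all genes), and lay under each in 0, 5 and 1 (18.1% of all genes). In the sums over members, given as CPM (counts scaled to the library total after TMM normalization), mitochondrial chaperones were at 338 and 358 CPM in mature and 485 and 464 CPM in elderly libraries, without overlap. Cytosolic chaperones were at 3912 and 3208 CPM in mature and 2925 and 4886 CPM in elderly libraries, and ER chaperones at 4836 and 5766 CPM in mature and 4163 and 5454 CPM in elderly libraries, and in both compartments the ages overlapped. In bulk RNA, fewer cells of a type and less RNA per cell cannot be told apart.

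**Figure D1:**
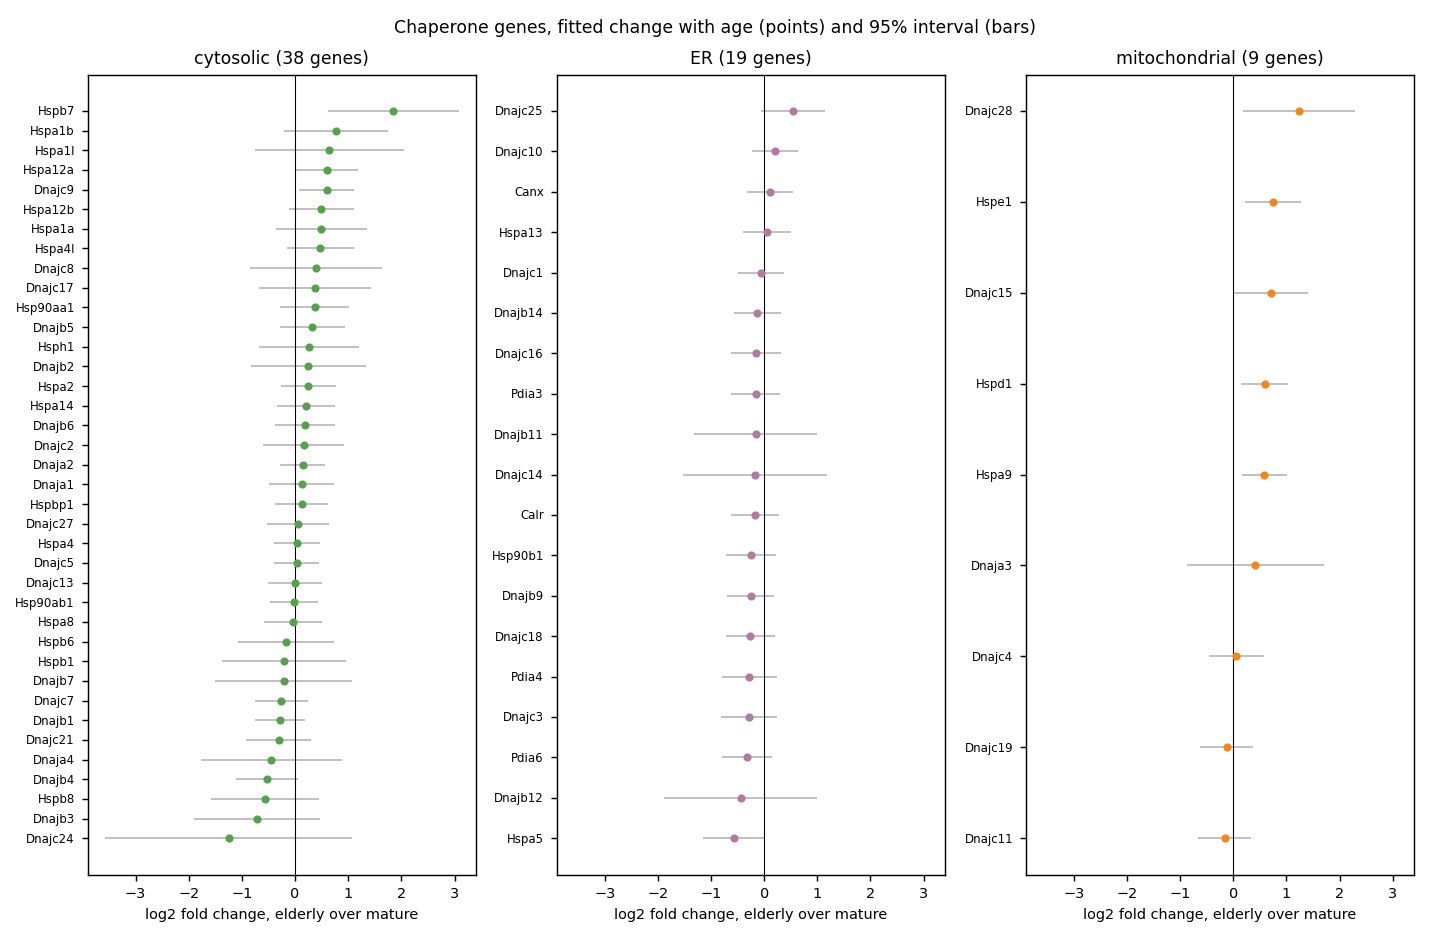
Log2 fold change of elderly over mature mice (x axis) for 38 cytosolic, 19 ER and 9 mitochondrial chaperones (points, 1 per gene) with 95% intervals (bars), leaving out genes with 3 counts or fewer in both libraries of an age. Most ER points lie left of 0, most mitochondrial points lie right of it, and no gene was called.

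Marker genes of some other cell types moved with age, and the values of all lists stand here for all results. Summed erythroid markers were at 209 and 81.5 CPM in mature and 712 and 714 CPM in elderly libraries, and 4 of 6 tested were called higher (Klf1, Slc4a1, Epor and Car1). Neutrophil markers were at 2015 and 1156 against 4374 and 4259.6 CPM, with 5 of 8 called higher (Elane, Ctsg, Ngp, Ltf and S100a8), and proliferation genes were at 311 and 126 against 854 and 619 CPM, with 3 of 8 called higher (Mki67, Top2a and Birc5). Plasma cell markers were at 84.1 and 71.1 against 107 and 125 CPM, with 2 of 5 called higher (Igj and Prdm1, the latter at 0 in both mature libraries). Igj alone was at 4.56 and 2.40 CPM in mature and 53.4 and 60.3 CPM in elderly libraries. The log2 fold change was below 0 in 2 of the 5, for 1 of them at an unadjusted p under 0.05 in edgeR's quasi-likelihood test. B lineage markers were at 13.7 and 12.3 against 28.6 and 20.1 CPM, with 0 of 7 called. None of 4 endothelial or 4 muscle markers was called, at 17.7 and 27.4 against 20.9 and 18.6 CPM and at 37.4 and 44.8 against 36.4 and 41.4 CPM. At an unadjusted p under 0.05 edgeR's quasi-likelihood test gave 3 B lineage, 1 endothelial and 0 muscle markers, and after adjustment DESeq2 called 1 endothelial marker and the exact test 1 B lineage marker. Of the hemoglobin genes, which had few countable bases, Hba-a1 had 0 and 0 counts in mature and 1 and 1 in elderly libraries, and Hbb-b1 had 1 and 0 against 10 and 19, at least 4.17-fold higher against a floor of 3 counts per library (adjusted p 0.130 in edgeR's quasi-likelihood test and 0.0335 in its exact test). The markers of LEPR+ stroma, Lepr and Cxcl12 included, were detected in all libraries, at 29867 and 30486 CPM in mature and 18635 and 26824 CPM in elderly libraries, with 0 of 9 called (2 at an unadjusted p under 0.05 in edgeR's quasi-likelihood test, both lower), and their median log2 fold change was -0.35. The part of these cells in the chaperone values was not tested.

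Among mitochondrial chaperones Hspa9, Hspd1 and Hspe1 had higher values in both elderly libraries. Hspa9, the mitochondrial HSP70 known as mortalin, had 1527 and 1723 counts in mature and 2380 and 3113 in elderly libraries. Its level was 139.6 ± 11.5 CPM in mature and 209.6 ± 5.93 CPM in elderly mice (SD, n = 2 libraries each). The log2 fold change was 0.59 (SE 0.19, 95% interval 0.17 to 1.01), and the adjusted p in edgeR's quasi-likelihood test was 0.183. The 2 ages did not overlap, and the gap between them exceeded the difference within either age. Without any 1 of the libraries the log2 fold change stayed between 0.50 and 0.63.

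The HSP60/HSP10 pair had the same order of ages. Hspd1 had 836 and 1047 counts in mature and 1397 and 1784 in elderly libraries, or 80.9 ± 12.6 and 122 ± 5.50 CPM, and Hspe1 had 254 and 214 counts in mature and 339 and 562 in elderly libraries, or 20.1 ± 2.48 and 33.8 ± 4.69 CPM (SD, n = 2). The log2 fold changes were 0.59 for Hspd1 (SE 0.20, 95% interval 0.15 to 1.03) and 0.75 for Hspe1 (SE 0.25, 95% interval 0.21 to 1.28). Adjusted p was 0.215 for Hspd1 and 0.183 for Hspe1 in edgeR's quasi-likelihood test. In both genes each elderly library lay above each mature library. Of the counts of Hspe1, 72.0% came from the coding transcript and the rest from a retained-intron transcript, which had 67 and 44 counts in mature and 48 and 224 in elderly libraries, so that only elderly replicate 2 was high in it. The coding transcript of Hspe1 had 187 and 170 counts against 291 and 338, and there the ages stayed apart.

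The mitochondrial DnaJ proteins had values in both directions. Dnajc28 had 15 and 25 counts in mature and 56 and 48 in elderly libraries, a log2 fold change of 1.24 (SE 0.49) with an adjusted p of 0.303 in edgeR's quasi-likelihood test. Dnajc15, a DnaJ protein of the inner membrane that works with the import motor, had 87 and 95 against 176 and 151 counts. Dnajc19, which is also tied to the import motor, had 430 and 355 against 334 and 483 counts and a log2 fold change of -0.12. Dnajc11, a partner of the complex that shapes the cristae, had 451 and 400 against 396 and 454 counts, and its log2 fold change was -0.16. The ages overlapped in Dnajc19 and Dnajc11, and the summed level of the DnaJ family was 113 and 102 CPM in mature and 116 and 104 CPM in elderly libraries. Dnaja3, the DnaJ partner of mortalin, had 20 and 27 counts in mature and 47 and 19 in elderly libraries, so that only elderly replicate 1 stood higher. None of these counts came from protein-coding transcripts, which had no countable bases in this gene.

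**Figure D2:**
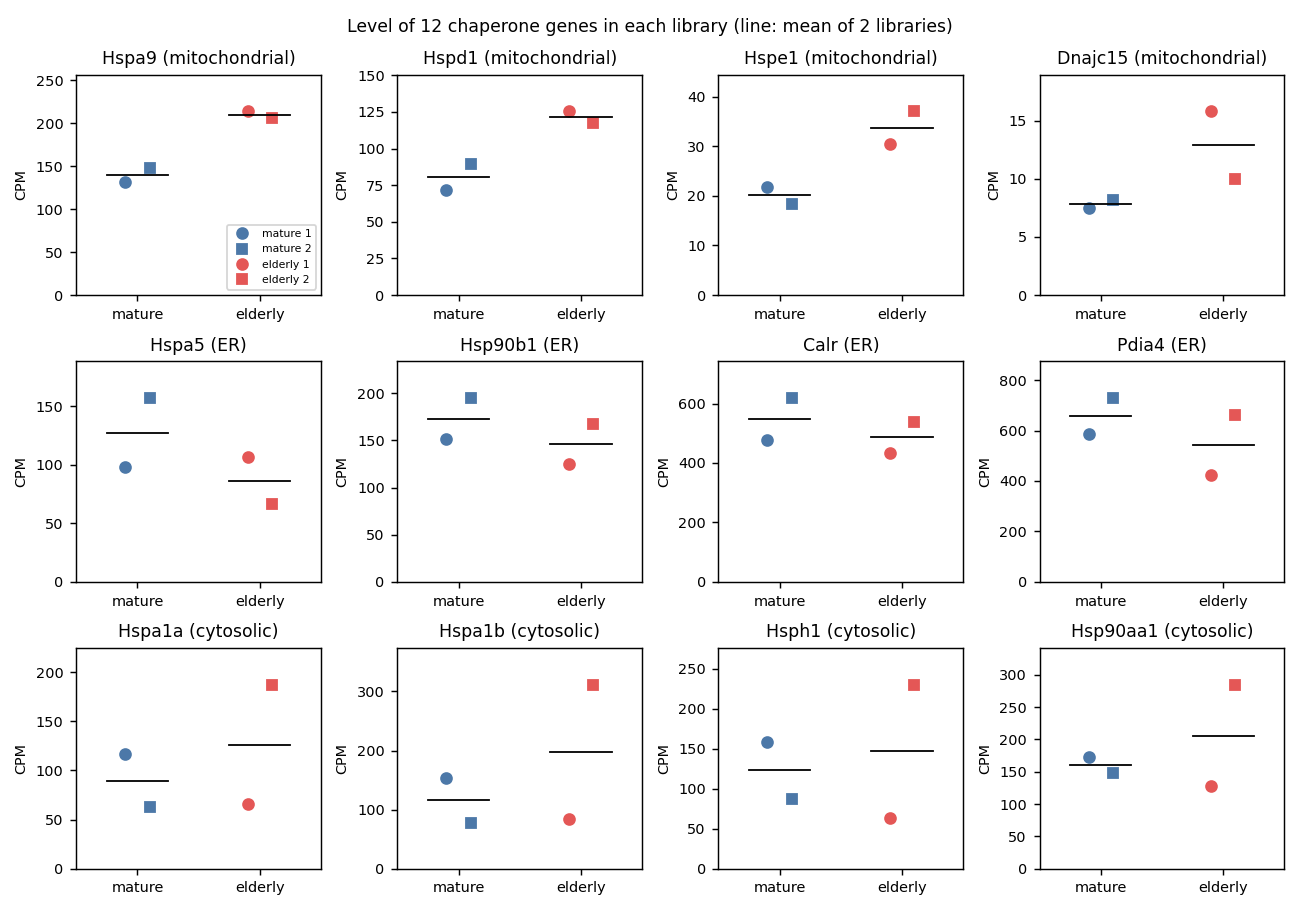
Level in CPM (linear axis from 0) of selected mitochondrial, ER and cytosolic chaperones in each of the 4 libraries (points, 2 mature and 2 elderly), with a line at the mean of each age. The ages are apart in Hspa9, Hspd1 and Hspe1, whereas in Hspa1a and Hspa1b elderly replicate 2 and mature replicate 1 stand above the other library of their age.

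The inducible HSP70 genes of the cytosol differed more between libraries of the same age than between ages. Hspa1a and Hspa1b, the neighbouring genes of the heat-inducible HSP70 on chromosome 17 (chr17:35106144-35109069 and chr17:35093381-35096183 in NCBIM37), are near-identical, and reads could have been split between them in ways the files do not show. Hspa1a had 1360 and 728 counts in mature and 728 and 2833 in elderly libraries. Hspa1b had 1777 and 912 counts in mature and 930 and 4710 in elderly libraries, and the pair together had 3137 and 1640 against 1658 and 7543. Elderly replicate 2 was the highest library in both genes and mature replicate 1 the next, while the remaining libraries were alike.

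Between ages, Hspa1a was at 89.7 ± 38.6 CPM in mature and 126 ± 85.9 CPM in elderly mice and Hspa1b at 116 ± 52.9 and 197 ± 161 CPM (SD, n = 2). The log2 fold changes were 0.49 (SE 0.39, 95% interval -0.36 to 1.34) and 0.77 (SE 0.45, 95% interval -0.21 to 1.75), and adjusted p was 0.714 and 0.605 in edgeR's quasi-likelihood test. The direction rested on elderly replicate 2: without it the log2 fold changes were -0.46 and -0.47. Without mature replicate 1 that of Hspa1b was 1.33 with an adjusted p of 0.0057 in edgeR's quasi-likelihood test. It was also called with all 4 libraries when the filter on low counts was dropped (adjusted p 0.0331), and its adjusted p in edgeR's quasi-likelihood test and the other tests run reached from 0.0057 to 1 over the alternatives.

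In other cytosolic chaperones, inducible and constitutive, the same library was the higher of each age. Hsph1, an HSP110 that recharges HSP70 with ATP, had 1838 and 1021 counts in mature and 707 and 3477 in elderly libraries. Hsp90aa1, the inducible HSP90, had 2001 and 1718 against 1417 and 4306 counts, or 159.8 ± 17.6 and 206 ± 111 CPM, and its adjusted p in edgeR's quasi-likelihood test was 0.724. Dnaja1, a DnaJ partner of cytosolic HSP70, had 19081 and 13730 against 11617 and 30728 counts, and Hspa8, the constitutive HSP70 Hsc70, had 4566 and 3707 against 2801 and 6620. In each of these 4 genes elderly replicate 2 was highest, mature replicate 1 next and elderly replicate 1 lowest in CPM. The log2 fold changes between ages were 0.26 for Hsph1, 0.37 for Hsp90aa1, 0.12 for Dnaja1 and -0.05 for Hspa8, each smaller in size than the log2 difference between the 2 elderly libraries.

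The size of this difference between libraries of one age was set against all genes. Mature replicate 1 exceeded mature replicate 2 by 1.88-fold for Hspa1a, 1.96-fold for Hspa1b and 1.81-fold for Hsph1 in CPM, and elderly replicate 2 exceeded elderly replicate 1 by 2.86-fold, 3.72-fold and 3.61-fold. Both ratios were over 1.5 in 4 of 65 members with a mean of at least 20 counts, the fourth being Dnajb3, against 1.27% of 12743 genes. All 4 are cytosolic. This pattern was noticed in these libraries and has no test. The labels give no batch, and the replicate numbers of the ages have no stated link.

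Not all heat-inducible genes shared the order. Dnajb1, the HSP40 that is itself a classical heat-shock gene, had 1338 and 1816 counts in mature and 1126 and 1846 in elderly libraries, so that mature replicate 2 was the highest library in CPM. Dnaja2, a constitutive relative of Dnaja1, had 1707 and 1899 against 1766 and 2767 counts, and Hsp90ab1, the constitutive HSP90, had 5288 and 5447 against 4270 and 8029. The log2 fold changes were -0.28 for Dnajb1, 0.14 for Dnaja2 and -0.01 for Hsp90ab1, and none had an adjusted p under 0.7 in edgeR's quasi-likelihood test. Among immediate early genes, which are known to respond to tissue digestion, 0 of 13 were called between ages. The log2 fold change was below 0 in 12 and above 0 in 1. Both elderly libraries lay below both mature ones in 6 and above in 1 (18.1% and 22.9% of all genes). At an unadjusted p under 0.05 edgeR's quasi-likelihood test gave 1, lower in elderly mice. Their summed level was 38949 and 33482 CPM in mature and 28290.0 and 31772 CPM in elderly libraries. Within ages the list had no common order. Mature replicate 1 exceeded mature replicate 2 in 8 of 13 genes (median ratio 1.03), and elderly replicate 2 exceeded elderly replicate 1 in 6 of 13 (median ratio 0.988). The part of digestion in the chaperone values was not tested.

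**Figure D3:**
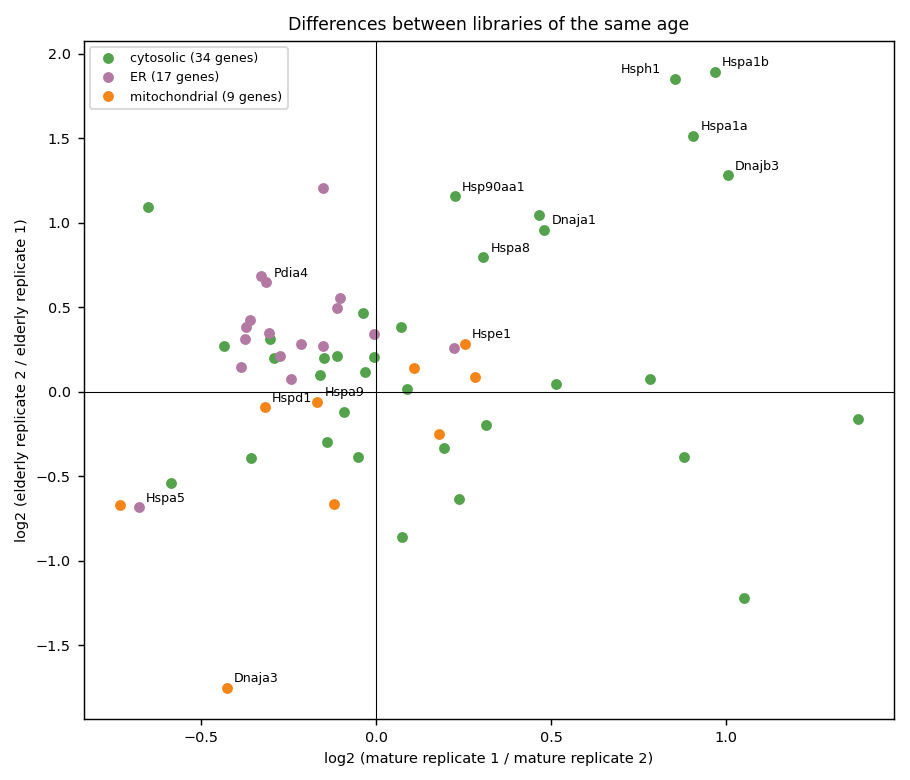
Ratio of mature replicate 1 to mature replicate 2 (x axis, log2) against ratio of elderly replicate 2 to elderly replicate 1 (y axis, log2) in CPM for the chaperones of the 3 compartments with a mean of at least 20 counts (points, coloured by compartment). Hspa1a, Hspa1b, Hsph1 and Dnajb3 lie beyond 1.5-fold on both axes, and most ER chaperones lie left of 0 on the x axis and above 0 on the y axis.

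Across the cytosolic HSP70 and HSP110 family the log2 fold change was above 0 in 10 of 11 genes (51.2% of all genes), with a median of 0.48. The family sum overlapped between ages, at 1056 and 786 CPM in mature and 785 and 1415 CPM in elderly libraries. With 1 library left out, the lowest values were -0.46 for Hspa1a, -0.47 for Hspa1b, -0.95 for Hsph1, -0.12 for Hspa2 and -0.04 for Hspa4. The other genes above 0 kept their sign. The ages did not overlap in 4 of the 11, with elderly libraries higher (22.9% of all genes): Hspa12a, Hspa12b, Hspa14 and Hspa1l. Hspa12a, a distant HSP70 relative, had 455 and 434 counts in mature and 834 and 627 in elderly libraries, a log2 fold change of 0.60 with an adjusted p of 0.416 in edgeR's quasi-likelihood test. Hspbp1, an exchange factor that frees nucleotide from HSP70, had 311 and 333 against 349 and 438 counts and a log2 fold change of 0.12.

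Among the small heat-shock proteins with over 3 counts in each age, the highest log2 fold change was that of Hspb7, a member best known from heart and skeletal muscle. It had 12 and 7 counts in mature and 32 and 46 in elderly libraries, or 0.817 ± 0.306 and 2.95 ± 0.114 CPM (SD, n = 2). Its log2 fold change was 1.84 (SE 0.57, 95% interval 0.61 to 3.08) with an adjusted p of 0.136 in edgeR's quasi-likelihood test, and each elderly library was above each mature library. The 4 tested muscle markers had log2 fold changes from -0.52 to -0.07. Of the other small heat-shock proteins, 3 with counts in all libraries overlapped between ages. Hspb1, also called HSP25, had 33 and 18 against 24 and 25 counts, Hspb6 had 119 and 46 against 74 and 90, and Hspb8, which works with BAG3 in the removal of damaged proteins, had 38 and 60 against 20 and 58. Hspb2, at 2 and 0 counts in mature and 8 and 4 in elderly libraries, and Hspb3, at 0 and 0 against 1 and 2, did not overlap, but their counts are too few for a fold, and Hspb9 had 2 and 0 against 0 and 2.

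The cytosolic DnaJ proteins were spread around no change, with a median log2 fold change of 0.04 over 24 tested genes, 14 above and 10 below 0. Dnajc9, a DnaJ protein that also handles histones, had 343 and 301 counts in mature and 518 and 560 in elderly libraries, and its log2 fold change was 0.59 with an adjusted p of 0.318 in edgeR's quasi-likelihood test. Its ages did not overlap, and the proliferation genes, 3 of 8 of which were called higher, lay at 126 to 311 CPM in mature and 619 to 854 CPM in elderly libraries; their part in this value was not tested. Dnajb3 went from 52 and 26 counts in mature to 13 and 43 in elderly libraries, a log2 fold change of -0.72 with overlapping ages. In 5 of 24 cytosolic DnaJ genes each elderly library lay under each mature library in CPM, near the share of 18.1% over all genes (Dnajb4, Dnajc7, Dnajc12, Dnajc21 and Dnajc24), and the highest count among these was 547. Dnajb13 had 1 and 0 counts in mature and 13 and 1 in elderly libraries, so that only elderly replicate 1 stood higher, and Dnajc12 had 6 and 4 against 2 and 3.

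The ER chaperones had lower values in elderly mice in 15 of 19 genes, with 0 called, 0 at an unadjusted p under 0.05 (DESeq2 gave 1) and no adjusted p under 0.472 in edgeR's quasi-likelihood test. Hspa5, the ER HSP70 BiP, which also senses ER load (chr2:34627490-34632051 in NCBIM37), had 1139 and 1831 counts in mature and 1185 and 1005 in elderly libraries. Its level was 128 ± 41.7 CPM in mature and 86.4 ± 28.4 CPM in elderly mice (SD, n = 2), a log2 fold change of -0.56 (SE 0.27, 95% interval -1.15 to 0.02) with an adjusted p of 0.472 in edgeR's quasi-likelihood test. Mature replicate 2 was the highest library, and elderly replicate 1 lay above mature replicate 1. Only 10.1% of the counts of Hspa5 came from its protein-coding transcripts, since most of their bases are shared with shorter transcripts of the gene.

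The partners of BiP had smaller log2 fold changes. Hsp90b1, the ER HSP90 known as GRP94, had 1762 and 2272 counts in mature and 1389 and 2534 in elderly libraries, with a log2 fold change of -0.25. Dnajb9, a DnaJ protein that turns BiP onto misfolded chains, had 3266 and 4284 against 2870 and 4328 counts, and Dnajc3, known as P58IPK, had 9219 and 11629 against 6285 and 13747. The log2 fold changes of Dnajb9 and Dnajc3 were -0.26 and -0.28, and in all 3 genes the ages overlapped. Hspa13, an HSP70 of microsomes, had 852 and 992 against 827 and 1368 counts and a log2 fold change of 0.06.

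The disulfide isomerases and lectin chaperones, which fold glycoproteins and matrix proteins on their way out of the cell, had the same spread. Pdia6 had 2960 and 3194 counts in mature and 1902 and 3801 in elderly libraries, or 264 ± 13.5 and 211 ± 56.5 CPM (SD, n = 2). It was the only ER member in which each elderly library lay under each mature library in CPM, at a log2 fold change of -0.33 (SE 0.22) and an adjusted p of 0.670 in edgeR's quasi-likelihood test. Pdia4 had 6803 and 8494 against 4700 and 10021 counts (log2 fold change -0.28), and Pdia3 had 5207 and 5652 against 3853 and 7409 (log2 fold change -0.16). Calr, the soluble lectin calreticulin, had 5537 and 7208 against 4825 and 8172 counts (log2 fold change -0.17), and Canx, its membrane-bound relative calnexin, had 11091 and 12364 against 11028 and 18121 (log2 fold change 0.12). For these 4 genes the ages overlapped. The 1 ER member with both elderly libraries above both mature ones was Dnajc25, at 134 and 135 against 165 and 285 counts.

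Within each age, replicate 2 was the higher library for most ER members. In CPM, mature replicate 2 exceeded mature replicate 1 in 16 of 17 ER members with a mean of at least 20 counts (49.3% of all such genes), and elderly replicate 2 exceeded elderly replicate 1 in 16 of 17 (49.7% of all such genes). In the mature libraries this is the opposite order from that of Hspa1a, Hspa1b and Hsph1 and the same as that of Dnajb1, and in the elderly libraries it is the order of all 4. The unfolded protein response and ER quality control genes had mature replicate 2 higher in 16 of 23 and elderly replicate 2 higher in 15 of 23. The exception in elderly mice was Hspa5, at 106 CPM in replicate 1 and 66.3 CPM in replicate 2.

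**Figure D4:**
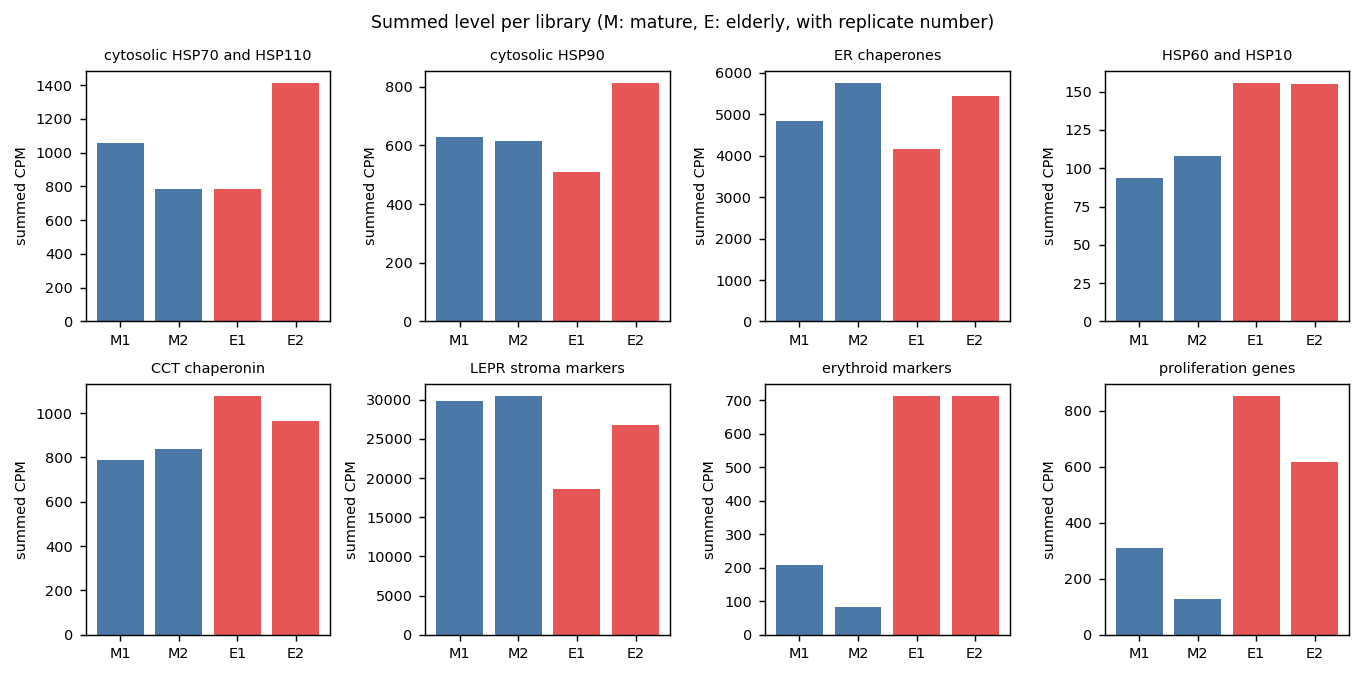
Summed CPM (y axis from 0) of 8 gene groups in each of the 4 libraries (bars, 1 per library: M1 and M2 mature, E1 and E2 elderly, with no error bar). HSP60 and HSP10, the CCT chaperonin, erythroid markers and proliferation genes are higher in each elderly library than in each mature one, LEPR stroma markers are lower, and the cytosolic HSP70, HSP90 and ER groups overlap between ages.

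The transcription factors on the list could be read only in part. Hsf1, the regulator of the heat-shock response, had 57 and 55 counts in mature and 53 and 72 in elderly libraries, with a log2 fold change of -0.02, but only 160 of its bases could be counted. Hsf2, a related factor, had 32 and 23 against 27 and 11 counts on 54 countable bases, with a log2 fold change of -0.61. Ddit3, which encodes the ER stress factor CHOP, had 612 and 626 against 861 and 886 counts, a log2 fold change of 0.35 (SE 0.22) with an adjusted p of 0.639 in edgeR's quasi-likelihood test. Both elderly libraries lay above both mature ones in Ddit3, but only 16.5% of its counts came from protein-coding transcripts. These had 124 and 109 counts in mature and 119 and 142 in elderly libraries, which are close between ages after scaling for library size. With these alone the sign of its log2 fold change turned.

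Genes that carry the name without being chaperones stayed low or overlapped. Hspg2, the matrix proteoglycan perlecan, had 1 and 8 counts in mature and 0 and 1 in elderly libraries on 153 countable bases, so that only mature replicate 2 stood higher. Hspb11 had 17 and 6 against 9 and 13 counts, and Hspbap1 had 238 and 324 against 239 and 269. Among the pseudogenes, Hspa9-ps1 had 38 and 64 against 111 and 80 counts and Hspe1-ps5 had 37 and 12 against 8 and 20. The sequence of a processed pseudogene resembles its parent gene, and reads of the 2 may not be told apart, so these values are uncertain.

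The wider folding network was read from lists of genes outside the 90. The CCT chaperonin, the cytosolic counterpart of HSP60 that folds actin and tubulin, had 0 of 8 subunits called, with both elderly libraries above both mature ones in 6 and below in 1 (22.9% and 18.1% of all genes) and a median log2 fold change of 0.33. Its summed level was 790.2 and 836 CPM in mature and 1078 and 964 CPM in elderly libraries, and Cct2 had 2148 and 2094 against 2896 and 3347 counts. Of 10 tested mitochondrial proteostasis genes (import partners and proteases) 0 were called, and the median was 0.01, with Clpx, the unfolding subunit of a matrix protease, at 72 and 62 counts in mature and 35 and 32 in elderly libraries. Of 24 tested genes of the unfolded protein response and ER quality control 0 were called, with 10 below and 2 above without overlap (18.1% and 22.9% of all genes) and a median of -0.15, and Pdia5 had 953 and 946 against 527 and 982 counts. Of 20 tested co-chaperones of HSP70 and HSP90 0 were called, with a median of -0.10, and of 5 prefoldin subunits 0 were called, with a median of 0.04. At an unadjusted p under 0.05 these 5 lists gave 2 genes in all in edgeR's quasi-likelihood test, both lower, and DESeq2 and the exact test called 0 after adjustment.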

How the data were processed

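The authors mapped trimmed paired reads with HISAT2 to mm9 and counted them with featureCounts in Galaxy, and deposited whole-number counts per Ensembl transcript without normalization. Bases shared by several transcripts held no counts. The strand setting is not given in the sources used here. Of 95883 transcripts, 388 were absent from GENCODE M1 (0.0785% to 0.0888% of counts), and the rest were summed per gene symbol.

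Ages were compared with edgeR 4.0.16 in R 4.3.3: a sum of counts over 2 (21340 genes), TMM factors (0.969 to 1.064), the quasi-likelihood test (2-sided, common dispersion 0.0687), and Benjamini-Hochberg adjustment over all genes. DESeq2 1.42.0 and the study's exact test at a dispersion of 0.2 were alternatives. With 2 libraries per age a permutation test cannot go below p = 0.333, so none was used for single values. Replicates are taken as pools. The p-values set the difference between ages against the spread between pools, which the fits estimate partly from other genes. In the exact test the dispersion was fixed instead. The fits were tested on simulated data. The 95% intervals use the fit's degrees of freedom (12.8).

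Values are given for the 2 members with the highest mean CPM per family, the genes the choice of members spells out, and the 5 largest and 5 smallest log2 fold changes at a mean of at least 1 CPM. Hsph1, Dnajb1, Dnajc9, Dnajc15, Dnajc25, Dnaja3, Hspa12a, Hspb2, Hspb3, Hspb9, Dnajb13 and Dnajc12 were added after their values were seen. Compartments were assigned by hand, and the members, lists and tests were chosen with earlier results of these data known. One marker of the lists is not reported here.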

Additional observations from a re-analysis of the deposited data

How the results depend on the processing

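No alternative called a member lower in elderly mice, and the number called higher was 0 under every alternative except 3, each of which called 1. Without the filter on low counts Hspa1b was called (adjusted p 0.0331), with the replicate number as a block Hspb7 was called (adjusted p 0.0475, between 0.0475 and 0.601 over its alternatives), and leaving out each library in turn gave 0 to 1, the 1 being Hspa1b without mature replicate 1, all in edgeR's quasi-likelihood test. Why these calls changed was not tested. With a library left out, the lone library of that age is assumed to vary like the others. The replicate numbers of the 2 ages share only a number: deviations of same-numbered libraries from their age mean correlated at 0.0425 over 12743 genes.

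The median log2 fold change of cytosolic chaperones was 0.067 with protein-coding transcripts only, and between -0.060 and 0.18 with 1 library left out, being below 0 without elderly replicate 2. The mitochondrial median stayed between 0.33 and 0.61 and the ER median between -0.33 and -0.04 with 1 library left out. Of 511 values of 37 named genes under the alternatives, 508 kept their side of the threshold and 26, in 18 genes, changed sign.

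With 2 pools per age and a biological coefficient of variation of 0.262, a change the size of that in Hspa9 did not pass the threshold. Genes with few countable bases, such as Hsf1, Hsf2 and Hspg2, are limited by depth, and their low counts do not show low expression.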

Other observations

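The order of libraries was also read from single transcripts of Hsph1 and Hspa5. In Hsph1 most counts lay in a retained-intron transcript, which had 1472 and 889 counts in mature and 598 and 2962 in elderly libraries, the order of libraries seen for the whole gene. In Hspa5 the coding transcript had 98 and 176 counts in mature and 122 and 124 in elderly libraries, and 2 shorter transcripts without a coding label had 410 and 715 against 429 and 404 and 427 and 678 against 471 and 330. Mature replicate 2 was the highest library in each of these 3, before scaling for library size.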
